A study of Trichoderma atroviride IMI 206040 with 36 samples.

Results

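The Δblr-2 strain of Trichoderma atroviride carries a deletion of blr-2, and its mycelium was compared after a pulse of blue light and in darkness. The members were the libraries labelled Δblr-2, 6 of the 36 samples of the series, and every transcript measured in them was described. They were 3 libraries of mycelium collected 30 min after a pulse of 200 μmol m–2 of blue light (Δblr-2 light) and 3 of mycelium that stayed dark (Δblr-2 dark), each from colonies grown for 36 h on cellophane over potato dextrose agar. The labels call the 3 libraries of a group biological replicates. Both groups carry the deletion. The same pulse was given to the Δblr-1 mutant and to the wild type (WT), and those 12 libraries served for comparison, while the Δenv-1 libraries entered the fit and a few level comparisons.

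BLR-1 and BLR-2 are the T. atroviride counterparts of WC-1 and WC-2 of Neurospora crassa. In N. crassa, WC-1 binds a flavin in its LOV domain and senses blue light, and WC-2 is its partner: the pair forms the White Collar complex, a transcription factor that binds the promoters of early light genes. ENVOY, the homologue of N. crassa VIVID, is a small LOV photoreceptor that damps the complex after light. In Trichoderma, blue light triggers conidiation, photolyase synthesis and stress gene expression.

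The deletion could not be read by gene name, since the sources used here give no transcript Id for blr-2. Exactly 1 transcript, Id. 42429, had no more than 3 counts in each Δblr-2 library and at least 5 CPM (estimated counts scaled to library size as edgeR does) in each of the 17 other fitted libraries. Its highest value was 1 count (0.145 CPM) in the Δblr-2 libraries, against 13.8 to 21.9 CPM in the others. The same search gave 0 transcripts for WT, Δblr-1 and Δenv-1. Id. 42429 has no annotation in the sources used, so it was not identified as blr-2.

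The Δblr-2 light libraries held 6843985 to 12062204 estimated counts and the dark ones 2397944 to 21505809. A floor of 3 counts per library equals 0.249 to 0.443 CPM in Δblr-2 light and 0.137 to 1.23 CPM in Δblr-2 dark. These floors cover counting error only. CPM is not divided by transcript length, so levels are compared between groups and not between genes. Replicates correlated at r = 0.988 to 0.991 in light and 0.982 to 0.993 in darkness on the log2 CPM scale across genes, against 0.943 to 0.970 for a light with a dark library. The Δblr-2 libraries stood apart from the other fitted libraries. On the first principal component of the 23 fitted libraries, which took 30.4% of the variance, the Δblr-2 light libraries scored 52.9 to 67.7 and the Δblr-2 dark libraries 12.5 to 17, whereas all 17 others lay between -17.9 and -7.17. Light libraries also scored above dark ones within WT, Δblr-1 and Δenv-1. No batch, extraction date or sequencing run of these libraries is given in the sources used here, so any such difference cannot be told apart from the strain. A difference in handling between the Δblr-2 light and dark libraries likewise cannot be told apart from the pulse.

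A broad set of transcripts differed between Δblr-2 light and Δblr-2 dark. Of 9605 tested genes, 577 were induced and 131 repressed with 0.05 as the limit of the adjusted p and 1 as the smallest absolute log2 fold change (edgeR quasi-likelihood test, Benjamini-Hochberg adjustment, light over dark). These are 6.01% and 1.36% of the genes tested. Without the fold limit, 1997 genes (20.8%) were higher and 1687 (17.6%) lower in light. Induction went further than repression: the median log2 fold change was 1.57 among induced and -1.21 among repressed genes, 156 induced genes reached 2 or more, and 12 repressed genes reached -2 or less. Over all genes tested the median was -0.02. The light libraries lay wholly above the dark ones for 568 of the 577 induced genes and wholly below them for 119 of the 131 repressed genes, against 2598 (27%) and 2396 (24.9%) of all tested genes in each direction. Values just outside the fold limit were common: 91 genes past the adjusted p had a log2 fold change of 0.9 to 1, and 71 had 1 to 1.1.

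**Figure D1:**
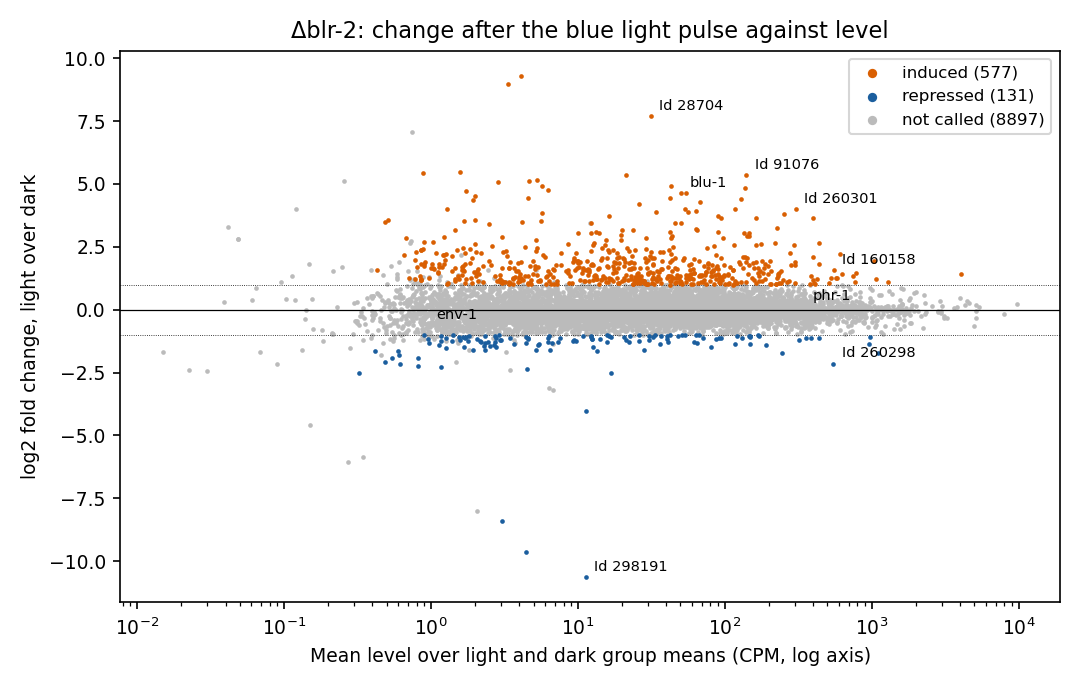
Log2 fold change, light over dark, against the mean level of the 2 group means in CPM (log axis) in Δblr-2, each point a tested gene. Of the called genes, 577 lie above the upper dotted line (log2 fold change of 1) and 131 below the lower one, env-1 and phr-1 lie between the lines, and Id. 298191 at the bottom had no counts in light.

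The induced genes took 7.80, 5.63 and 6.34% of all counts in the Δblr-2 light libraries, against 2.25, 2.18 and 2.15% in the dark ones. Light replicate 1 had the largest share, and the groups did not overlap. Since these genes were chosen in the same libraries, the shares are a description. The repressed genes took 0.430, 0.558 and 0.481% in light, against 1.19, 1.26 and 1.24% in darkness. Without light replicate 2, edgeR called 198 genes repressed in place of 131. Among the repressed genes, 84 had a group mean of at least 5 CPM, as had 470 of the induced genes.

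Among the photoreceptor and clock genes that respond to light in WT, env-1, frq, phr-1 and cry-DASH did not pass the test in Δblr-2. env-1 (Id. 150699), which encodes ENVOY, had 0.443, 1.08 and 0.725 CPM in Δblr-2 light, against 0.818, 1.35 and 1.28 CPM in Δblr-2 dark. These levels are near the counting floor, and light replicate 1 and dark replicate 1 were at or below their floor of 3 counts. The groups overlap, and the log2 fold change of -0.63 ± 0.26 (SE, n = 3 each) did not pass the test (edgeR adjusted p = 0.17). In WT, env-1 averaged 108 ± 1.93 CPM in light and 1.87 ± 0.18 CPM in darkness (SD, n = 3 each), a log2 fold change of 5.86. The Δblr-2 response lay 6.49 log2 units below that of WT (test of the difference in edgeR, adjusted p = 5.46e-12).

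The frequency orthologue (Id. 131340), which encodes a component of the circadian oscillator of N. crassa, had 59.0, 45.5 and 46.8 CPM in light, against 56.9, 52.0 and 57.3 CPM in darkness. Its groups overlap and its log2 fold change was -0.14 in Δblr-2 against 2.25 in WT. phr-1 (Id. 302457), the photolyase that splits cyclobutane pyrimidine dimers under light, had 350.5, 371 and 376 CPM in light, against 356, 354 and 292 CPM in darkness, and likewise overlapped (log2 fold change 0.14, against 1.33 in WT). cry-DASH (Id. 285589) stayed at or below 0.812 CPM in all 6 libraries, near the counting floor, with a log2 fold change of -0.34. The direction of that value was not fixed, since it was 0.10 without dark replicate 2. Responses of frq, phr-1 and cry-DASH in Δblr-2 lay 2.39, 1.19 and 2.43 log2 units below those in WT (test of the difference in edgeR, adjusted p = 1.13e-11, 1.42e-07 and 0.034). For cry-DASH this call was lost in 4 of 12 alternatives, with an adjusted p of up to 0.13. In Δblr-1 the log2 fold changes of env-1, frq, phr-1 and cry-DASH were 0.37, -0.20, -0.07 and 0.69, none of them called. Their differences between Δblr-2 and Δblr-1 did not pass the test (edgeR adjusted p = 0.15, 0.83, 0.25 and 0.50). None of these genes was thus called in either mutant, but a difference that does not pass does not show equal responses. For env-1 it was -1.0 ± 0.35 (SE).

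Of the other named genes of that response, blu-1 was induced in Δblr-2, and cry-1, tmk-3 and bld-2 passed the adjusted p without reaching the fold limit. blu-1 (Id. 300570), the orthologue of the glucose-repressible gene grg-1 of N. crassa, had 145, 77.4 and 68.0 CPM in Δblr-2 light, against 6.14, 2.98 and 3.97 CPM in Δblr-2 dark. Every light library was above every dark one, and blu-1 rose, with a log2 fold change of 4.65 ± 0.29 (adjusted p = 1.06e-10, edgeR). The change was 7.76 in WT and 0.61 in Δblr-1. The Δblr-2 response thus lay 3.11 below that of WT (edgeR adjusted p = 1.79e-04) and 4.04 above that of Δblr-1 (edgeR adjusted p = 4.48e-05).

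cry-1 (Id. 86846), a member of the cryptochrome and photolyase family, had 29.5, 28.2 and 26.1 CPM in light, against 12.7, 15.4 and 13.5 CPM in darkness. The groups did not overlap, and the change of 0.99 ± 0.10 passed the adjusted p (edgeR, 1.61e-07) but fell just short of the fold limit. It reached the limit at 1.07 without dark replicate 2 and at 1.03 without light replicate 3. The change of cry-1 was 1.84 in WT and 0.54 in Δblr-1. Only the difference from WT passed the test (edgeR adjusted p = 3.01e-04, against 0.0505 for Δblr-1). tmk-3 (Id. 301235), a MAP kinase of the stress-activated class, had 395, 306 and 319 CPM in light, against 189, 205 and 204 CPM in darkness. All light libraries were higher (log2 fold change 0.76 ± 0.07, edgeR adjusted p = 5.22e-08), and the response lay 0.66 below that of WT and 0.82 above that of Δblr-1, where it was -0.06 (edgeR adjusted p of the differences 9.20e-05 and 1.19e-05). bld-2 (Id. 301399), a short-chain dehydrogenase reductase, had 1348, 1724 and 1493 CPM in light, against 2340.0, 2327 and 1970.4 CPM in darkness. It was lower in every light library, by 0.54 log2 units (edgeR adjusted p = 0.0073), against a change of -1.68 in WT. In Δblr-1 the change of bld-2 was -0.12, and the difference from Δblr-2 did not pass the test (edgeR adjusted p = 0.20).

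The geranylgeranyl diphosphate synthase (Id. 160158), which makes the C20 precursor of carotenoids and other diterpenoids, had 899.9, 752 and 827 CPM in Δblr-2 light, against 295, 277 and 262 CPM in Δblr-2 dark. The groups were far apart relative to their spread, 826 ± 74.0 against 278 ± 16.7 CPM (SD, n = 3 each), and the gene rose, with a log2 fold change of 1.58 ± 0.08 (adjusted p = 5.65e-12, edgeR). The change was 2.56 in WT and 0.06 in Δblr-1, and both differences from the Δblr-2 response passed the test (edgeR adjusted p = 2.11e-06 and 1.69e-08). A cell division control protein (Id. 155669) had 82.9, 72.7 and 82.0 CPM in light, against 37.6, 37.2 and 41.1 CPM in darkness. This gene stood at 1.02 on the log2 scale, against 3.02 in WT and 0.04 in Δblr-1, and missed the fold limit in 3 of 15 alternatives, with a lowest value of 0.98.

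**Figure D2:**
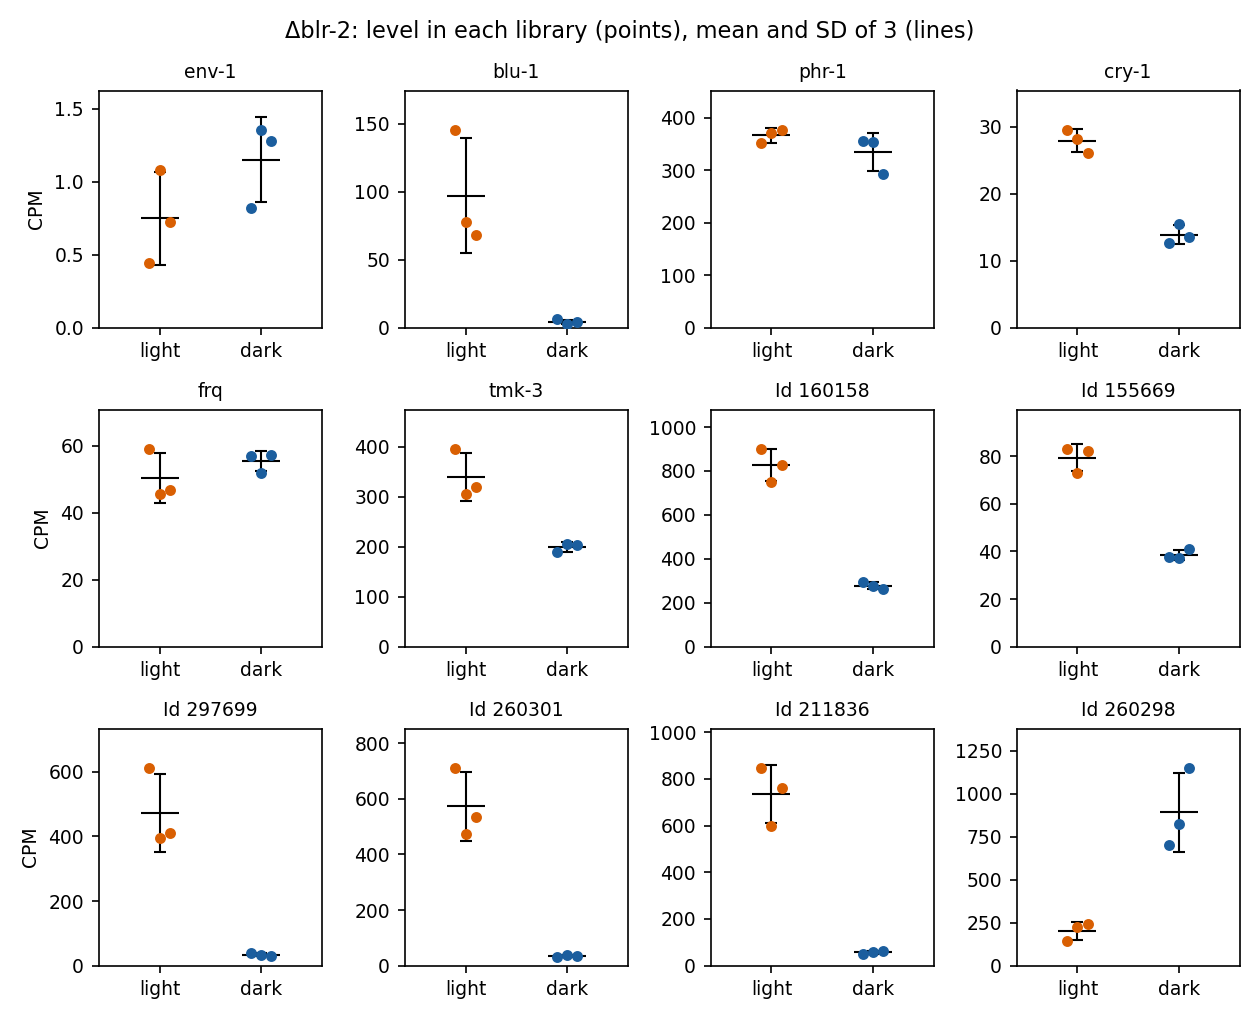
Level in CPM of 12 genes in each Δblr-2 library (points, light on the left in orange, dark in blue) with the mean and SD of 3 libraries (lines), each panel on its own linear axis from 0. The groups overlap for env-1, phr-1 and frq, and the light libraries lie above the dark ones for 8 others, blu-1 and Id. 260301 among them, while Id. 260298 is lower in light.

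Genes with a product name in the study's tables that rose most in Δblr-2 included 3 annotated for membranes or the cell surface. Plasma membrane proteolipid 3 (Id. 260301), a small hydrophobic protein whose yeast relative affects membrane potential, had 711, 472 and 535 CPM in light, against 32.7, 37.6 and 35.0 CPM in darkness. A CFEM domain protein (Id. 297699), of a cysteine-rich family found outside fungal cells, had 611, 393 and 411 CPM in light, against 38.1, 33.9 and 31.1 CPM in darkness. Phospholipase D (Id. 34379), which releases phosphatidic acid from membrane lipids, had 143, 85.8 and 89.8 CPM in light, against 6.14, 8.12 and 6.52 CPM in darkness. In all 3 genes the groups stood clearly apart, with log2 fold changes of 4.01 ± 0.21, 3.82 ± 0.16 and 3.90 ± 0.18 (edgeR adjusted p = 7.34e-12, 2.77e-13 and 1.81e-12). Their changes in WT were 1.04, 1.53 and 1.42, and each Δblr-2 response exceeded that of WT (edgeR adjusted p of the differences 1.53e-06, 2.96e-07 and 4.49e-06) and that of Δblr-1 (2.12e-07, 3.04e-08 and 7.52e-08). A glycine-rich cell wall structural protein (Id. 94244) rose too, with 148, 95.3 and 103 CPM in light, against 15.5, 12.4 and 11.8 CPM in darkness (log2 fold change 3.18).

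Among the other induced genes with product names were 3 annotated for chromatin, DNA or ribosomes. The SNF2 family gene (Id. 211836), of a class of ATPases that remodel chromatin, had 847, 600.0 and 759 CPM in light, against 49.9, 57.9 and 62.4 CPM in darkness. A gene annotated for recognition of mismatched and cruciform DNA (Id. 32123) had 241, 139 and 141 CPM in light, against 13.1, 13.1 and 14.7 CPM in darkness. The orthologue of the Shwachman-Bodian-Diamond syndrome protein (Id. 301468), which helps to mature the large ribosomal subunit, had 575, 339 and 311 CPM in light, against 41.3, 47.2 and 40.9 CPM in darkness. All 3 were higher in each light library, by log2 fold changes of 3.66 ± 0.34, 3.64 ± 0.17 and 3.23 ± 0.20 (edgeR adjusted p = 3.93e-08, 1.57e-12 and 6.51e-11). None of the 3 passed both thresholds in WT (log2 fold changes 0.54, 0.59 and 0.91), and the 3 responses in Δblr-2 exceeded those in WT (edgeR adjusted p of the differences 5.55e-05, 6.73e-08 and 5.39e-06). A SET domain protein (Id. 286297), of the family of histone methyltransferases, rose by 1.92, and a stress response protein (Id. 151996) by 2.56.

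Many of the largest changes were in transcripts with no product name. Product names came only from the study's lists of genes responding to light in other strains. They covered 250 of the 9605 tested genes, 170 of them with an informative name. Of the 577 induced genes, 60 had any product name and 37 an informative one. A missing name thus reflects the source of the names. Id. 91076 had 390.2, 201 and 231 CPM in light, against 7.36, 6.31 and 6.66 CPM in darkness. Id. 28704 had 95.05, 46.0 and 45.9 CPM in light, against 0.818, 0.271 and 0.228 CPM in darkness. Both were separate between the groups, with log2 fold changes of 5.36 ± 0.23 and 7.69 ± 0.47 (edgeR adjusted p = 3.21e-13 and 8.01e-11), and light replicate 1 had the highest value in each. In Δblr-1 the log2 fold changes were 0.33 and -0.73. In 10 induced genes no dark library had more than 3 counts. Among them, Id. 256410 had 4.13, 8.98 and 11.6 CPM in light and no counts in darkness, at least 15.1-fold higher when darkness is set to a floor of 3 counts per library, and Id. 88516 was at least 10.01-fold higher. Counts of Id. 256410 were not whole in 4 libraries, so reads were shared with another transcript there and its value is uncertain. That holds for 38 induced and 15 repressed genes, 7.49% of those called, against 10.9% of all tested genes.

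Repressed genes were fewer, and 15 of the 131 had a product name, against 250 of all 9605 tested genes. Id. 260298, annotated as a protein with no further name, had 144, 223 and 239.8 CPM in light, against 703, 826 and 1149 CPM in darkness. It fell by 2.15 on the log2 scale (SE 0.21, edgeR adjusted p = 5.51e-08), with no overlap between groups, and its response lay below those of WT and Δblr-1 by 1.17 and 1.42. A phenol 2-monooxygenase (Id. 298259), of a class that hydroxylates phenol to catechol, had 230.1, 258 and 243 CPM in light, against 506, 523 and 554 CPM in darkness. This gene also fell, by 1.12 (edgeR adjusted p = 3.95e-08), with counts that were not whole in the 6 libraries. A lipase (Id. 317495), a feruloyl esterase (Id. 289105), which frees ferulic acid from plant cell walls, and a pyoverdine and dityrosine biosynthesis gene (Id. 88424) fell by 1.25, 1.28 and 1.66 (edgeR adjusted p = 4.89e-05, 0.0046 and 0.0011).

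In 8 repressed genes no light library had more than 3 counts. Id. 298191 had no counts in light, against 32.3, 17.6 and 17.8 CPM in darkness, at least 60.1-fold lower with the floor of 3 counts per library in light. The F-box gene Id. 242992, whose family selects proteins for ubiquitin ligases, had no counts in light, against 11.9, 3.07 and 3.24 CPM in darkness, at least 16.1-fold lower. Both stood wholly apart between the groups, and both had counts that were not whole in 3 libraries. Both were also called repressed in Δblr-1, with log2 fold changes of -3.17 and -2.42 (edgeR adjusted p = 0.017 and 0.031), but not in WT (-0.54 and -0.53). The weakest calls were here too: Id. 300292, of the GPR1 family, stood at -1.004 and lost its call in 7 of 15 alternatives (weakest value -0.88, without light replicate 2), and the FAD-binding gene Id. 28652, at -1.03, in 6 of 14 (weakest -0.80, without light replicate 1). The cyp51A gene (Id. 48253), for a sterol demethylase of ergosterol synthesis, at -1.24, lost it without light replicate 2, light replicate 3 or dark replicate 3 (edgeR adjusted p of up to 0.15), and its groups overlap.

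The genes called induced in Δblr-2 were set against the other strains. Median levels over the 577 induced genes were 41.0, 29.4 and 32.0 CPM in the Δblr-2 light libraries, against 9.41, 9.65 and 9.54 CPM in the Δblr-2 dark ones. Over the same genes the medians lay between 8.57 and 9.81 CPM in Δblr-1 light and 7.51 and 8.23 CPM in Δblr-1 dark, and between 10.9 and 12.5 CPM in WT light and 7.66 and 9.46 CPM in WT dark. The dark medians of Δblr-2 were thus at or just above the upper end of the other dark libraries, and its light medians were above every other library. The genes were chosen in these Δblr-2 libraries, so their levels there are a description. Over the 131 repressed genes the medians were 3.69, 4.24 and 4.64 CPM in Δblr-2 light, against 11.9, 13.8 and 12.5 CPM in Δblr-2 dark.

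**Figure D3:**
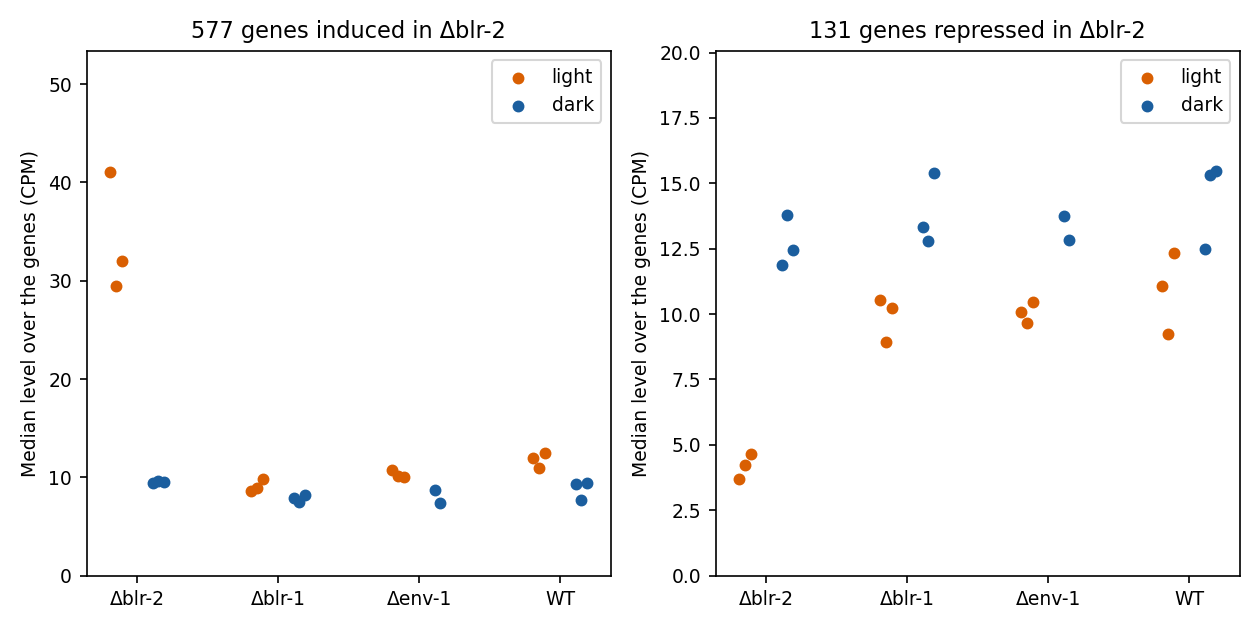
Median level in CPM over the 577 induced genes (left panel) and the 131 repressed genes (right panel) in each library of 4 strains, light in orange on the left and dark in blue. The Δblr-2 light libraries, at 29.4 to 41.0 CPM on the left and 3.69 to 4.64 CPM on the right, lie outside the range of all other libraries.

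By the same thresholds, 89 genes were induced (0.927% of those tested) and 34 repressed (0.354%) in WT, and 13 induced (0.135%) and 6 repressed (0.0625%) in Δblr-1. The genes induced in both Δblr-2 and WT numbered 32, which is 5.55% of the Δblr-2 and 36.0% of the WT calls. The genes induced in both Δblr-2 and Δblr-1 numbered 9, or 1.56% and 69.2%. No gene was called in opposite directions in Δblr-2 and either strain. Of the induced genes, 441 (76.4%) had a positive log2 fold change in WT and 438 (75.9%) in Δblr-1, where 50.7% and 49.8% of all tested genes had one, but the sizes were small: medians of 0.28 in WT and 0.19 in Δblr-1. Across the 9605 genes the log2 fold changes of Δblr-2 correlated at r = 0.22 with WT and r = 0.29 with Δblr-1, as a description, since genes are not independent replicates.

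**Figure D4:**
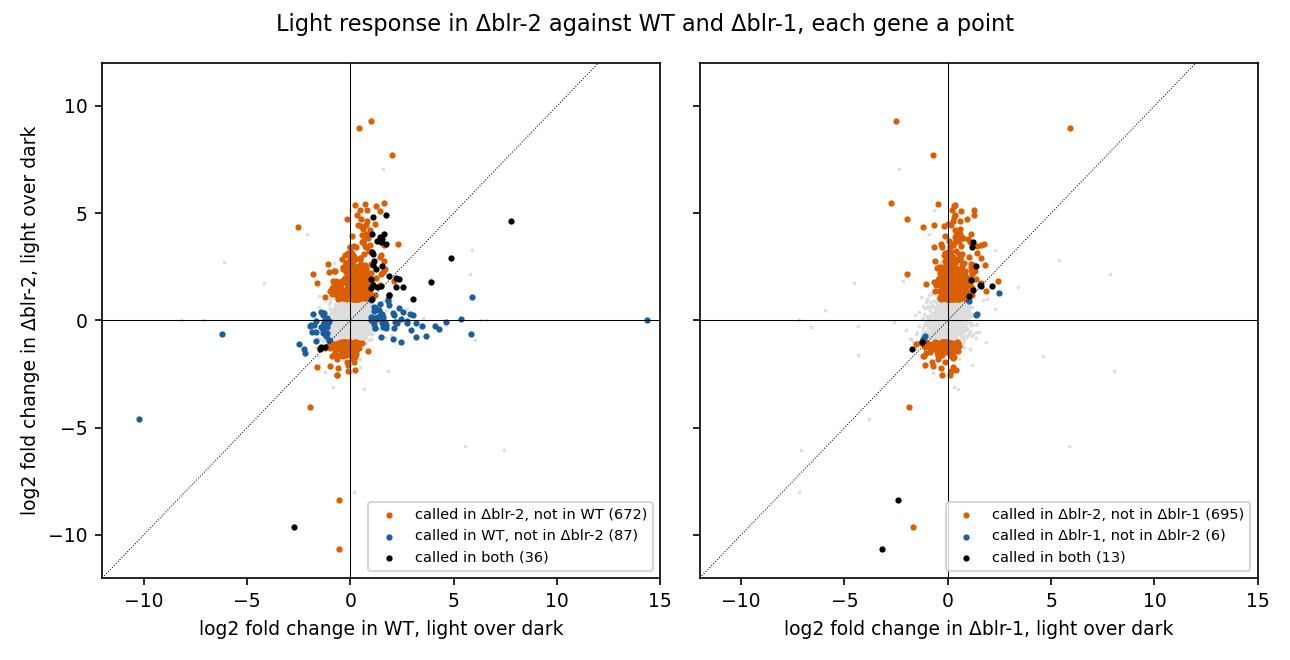
Log2 fold change, light over dark, in Δblr-2 (vertical axis) against WT (left) and Δblr-1 (right), each point a gene, colored by the strain in which it was called, with a dotted line of equal response. Most genes called in Δblr-2 lie near 0 on the horizontal axis, and the medians of the induced genes there are 0.28 in WT and 0.19 in Δblr-1.

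The difference between responses was tested for each gene (interaction term, edgeR, adjusted p of at most 0.05). The Δblr-2 response was higher than that of WT in 1117 genes (11.6%) and lower in 754 (7.85%). Against Δblr-1 it was higher in 977 (10.2%) and lower in 527 (5.49%). The last count fell to 304 without Δblr-2 light replicate 1 and to 351 without Δblr-1 light replicate 2. Among the 577 induced genes, whose choice already used the Δblr-2 libraries of these tests, the response exceeded that of WT in 392 and that of Δblr-1 in 389, and it was below that of WT in 4. Among the 89 WT-induced genes, chosen likewise on the WT libraries, the Δblr-2 response was lower in 53, higher in 14 and not separated in 22.

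Of the genes with the largest deficit against WT, 3 encode enzymes that did not pass the test in Δblr-2. An FAD-binding domain protein (Id. 298329) averaged 10.7 ± 0.936 CPM in Δblr-2 light and 9.97 ± 1.14 CPM in Δblr-2 dark, but 535 ± 43.2 CPM in WT light and 13.3 ± 1.5 CPM in WT dark. A cyclopropane-fatty-acyl-phospholipid synthase (Id. 153516), which adds a methylene bridge to membrane lipids, averaged 6.42 ± 0.572 CPM in Δblr-2 light and 6.82 ± 0.114 CPM in Δblr-2 dark, but 172 ± 20.0 CPM in WT light and 6.88 ± 1.46 CPM in WT dark (SD, n = 3 each). The log2 fold changes were 0.08 and -0.10 in Δblr-2, neither passing the test, against 5.33 and 4.64 in WT. An oxidoreductase-like protein (Id. 42455) stood at -0.38 in Δblr-2, where its light libraries were all lower without passing the test, against 4.28 in WT. The differences between strains were -5.25, -4.74 and -4.66 (edgeR adjusted p = 3.24e-12, 2.85e-13 and 3.63e-11). The small value of Id. 298329 in Δblr-2 changed sign, to -0.03, without dark replicate 3. In Δblr-1 the log2 fold changes of Id. 298329, Id. 153516 and Id. 42455 were likewise small, at -0.03, -0.09 and -0.14. Their differences between Δblr-2 and Δblr-1 did not pass the test (edgeR adjusted p of 0.66 or more).

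Lists of genes from the study's tables were chosen on other strains, not on Δblr-2. Of 96 tested genes listed as induced in WT, 34 were induced and 0 repressed in Δblr-2, and by adjusted p alone (edgeR) 44 were higher and 7 lower, as were 46 and 9 (47.9% and 9.38%) at an unadjusted p under 0.05. Over all genes tested, 24.3% were higher and 21.8% lower at an unadjusted p under 0.05, and 6.01% were induced and 1.36% repressed. Over the 250 tested genes listed for any strain, 24% were induced and 6% repressed, and the shares of the lists are given for reading beside both. Each count of 0 given here for a list was 0 in DESeq2 as well. The median log2 fold change of the 96 genes listed as induced in WT was 0.42 in Δblr-2, 0.13 in Δblr-1 and 1.70 in WT, beside medians of -0.02, 0.00 and 0.00 over all genes tested. The 93 tested genes listed as induced through BLR-1 gave 31 induced and 0 repressed (9 lower at an unadjusted p under 0.05), with a median of 0.33. Their 35 repressed counterparts gave 6 repressed and 0 induced. Of 38 genes listed as repressed in WT, 7 fell and 0 rose (19 lower and 0 higher at an unadjusted p under 0.05), with a median of -0.60 in Δblr-2 and -1.40 in WT. Among the lists defined by strain, calls were densest in the short lists of Δblr-1. Of 20 genes listed as induced in Δblr-1, 12 were induced and 0 repressed (14 higher and 0 lower at an unadjusted p under 0.05), with a median of 1.61 in Δblr-2, 1.38 in Δblr-1 and 0.72 in WT. Of 7 genes listed as repressed in Δblr-1, 3 fell, of which Id. 139683 lost its call in 6 of 15 alternatives (edgeR adjusted p of up to 0.30) and Id. 300292 as described.

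The 12 induced genes of the Δblr-1 list included the ankyrin gene Id. 31436, with 52.8, 60.2 and 56.5 CPM in Δblr-2 light, against 14.3, 18.8 and 20.4 CPM in Δblr-2 dark. Ankyrin repeats mediate contacts between proteins, and the light libraries of this gene were all higher (log2 fold change 1.60 ± 0.29, edgeR adjusted p = 1.61e-04), beside 2.16 in Δblr-1 and 1.48 in WT. The differences between these responses, -0.55 and 0.12, did not pass the test (edgeR adjusted p = 0.48 and 0.92). Id. 301968, a hypothetical protein, had 172, 125 and 101 CPM in light, against 48.3, 43.5 and 36.6 CPM in darkness, and rose by 1.67, beside 1.57 in Δblr-1. Id. 206189, annotated as mitochondrial chaperone bcs1, whose yeast namesake assembles respiratory complex III, had 151, 129 and 151 CPM in light, against 22.1, 25.3 and 25.3 CPM in darkness. Its groups stood apart, with a log2 fold change of 2.54 ± 0.20 against 0.43 in WT and 1.37 in Δblr-1, and both differences passed the test (edgeR adjusted p = 1.87e-05 and 0.0086). Lipoxygenase (Id. 33350), which oxidises polyunsaturated fatty acids, and katanin p60 (Id. 207541), which severs microtubules, rose by 1.44 and 2.58. The alcohol oxidase Id. 81139 and the STF2-like gene Id. 301901, listed as repressed in Δblr-1, stood at -0.89 and -0.71 and were past the adjusted p but short of the fold limit (edgeR, 0.011 each). Id. 81139 reached the limit at -1.12 without light replicate 1.

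Ankyrin, NACHT and HET domain products include regulators of vegetative incompatibility in filamentous fungi. Of 8 tested members 6 (75%) were induced and 0 repressed (7 higher and 0 lower at an unadjusted p under 0.05), with a median of 1.85 in Δblr-2, 0.87 in Δblr-1 and 0.75 in WT. Of these induced genes, Id. 31436, Id. 246325 and Id. 93713 also belong to the list induced in Δblr-1, so the lists are not independent. The ankyrin gene Id. 318307 had 95.05, 67.2 and 89.1 CPM in light, against 2.86, 2.89 and 2.60 CPM in darkness. The gene Id. 93713, with NACHT and ankyrin domains, had 92.4, 71.6 and 89.8 CPM in light, against 8.18, 7.31 and 8.12 CPM in darkness. Both separated fully, with log2 fold changes of 4.93 ± 0.29 and 3.43 ± 0.22 (edgeR adjusted p = 4.23e-11 and 1.64e-10). Their changes in WT, 0.31 and 0.76, were smaller (edgeR adjusted p of the differences 8.41e-07 and 1.64e-05). The induction of Id. 305868 was smaller than that in WT instead, at 1.80 in Δblr-2 against 3.91 in WT (edgeR adjusted p of the difference 0.015). The list holds Id. 318307 and Id. 321974 (log2 fold change 3.90), which are also the 2 called members, both induced, of the 47 tested genes listed as repressed in Δenv-1 and in no other strain. Of these 47, 2 were higher and 1 lower at an unadjusted p under 0.05.

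Of 17 tested transcription regulators, 3 (17.6%) were induced and 0 repressed (5 higher and 3 lower at an unadjusted p under 0.05), with a median of 0.06 in Δblr-2 against 1.47 in WT. Lists by product name hold only genes that the study listed as light-responsive, WT among its strains. Since 8 of these 17 were induced in WT, the WT median reflects that choice and is no measure of the class. The C2H2 finger gene Id. 87968 had 183, 134 and 179 CPM in light, against 16.8, 11.9 and 11.5 CPM in darkness, a log2 fold change of 3.72 that exceeded the 1.31 of WT (edgeR adjusted p of the difference 2.02e-04). Both groups of libraries lay far apart. Id. 49937 rose by 2.06 and Id. 44933 by 1.58. In DNA repair and replication, 1 of 8 members (12.5%) was induced and 0 repressed (3 higher and 2 lower at an unadjusted p under 0.05), the DNA recognition gene Id. 32123 described above. The median was 0.03 against 0.96 in WT, where 4 of the 8 were induced, so the same limit holds. The base excision repair gene Id. 26345 stood at 0.32, against 2.88 in WT. Of 10 DNA repair genes named in the study's text, 0 were called in either direction, and both by adjusted p alone and at an unadjusted p under 0.05 (edgeR) 1 was higher and 2 lower.

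Of 34 tested oxidoreductases 3 were induced and 3 repressed (8.82% each, median -0.27). Of 16 hydrolases 2 were induced and 2 repressed (12.5% each, median 0.27), as were 1 and 1 of 9 secondary metabolism genes (11.1% each, median -0.13). Of 13 transporters 2 were induced and 0 repressed (15.4% induced, median 0.15), as were 2 and 0 of 10 cell wall and conidia genes (20% induced, median 0.24). Each of these induced shares lay above the 6.01% of all genes tested and below the 24% of genes listed for any strain. The repressed shares of oxidoreductases, hydrolases and secondary metabolism genes lay above the corresponding 1.36% and 6%. At an unadjusted p under 0.05, 3 oxidoreductases were higher and 10 lower, 3 hydrolases higher and 4 lower, and 1 secondary metabolism gene higher and 1 lower. By the same limit, 2 transporters were higher and 4 lower, and 2 cell wall and conidia genes were higher and 0 lower. The flavin-binding monooxygenase Id. 134934, with 527, 311 and 308 CPM in light, against 55.6, 67.3 and 58.3 CPM in darkness, was the oxidoreductase with the largest rise (log2 fold change 2.64 ± 0.15, edgeR adjusted p = 3.61e-11). The platelet-activating factor acetylhydrolase Id. 253926, which removes acetyl groups from phospholipids, had 13.6, 7.06 and 10.6 CPM in light, against 0.818, 0.902 and 0.867 CPM in darkness, and rose by 3.54. Neither gene overlapped between the groups. Of 4 genes named for sulfur and serine metabolism, 0 were called, and 2 were higher and 1 lower at an unadjusted p under 0.05. The sulfite reductase gene (Id. 128510), which reduces sulfite to sulfide, had 461, 554 and 477 CPM in light, against 971, 879 and 912 CPM in darkness. It was lower in every light library, by 0.89 log2 units (edgeR adjusted p = 1.15e-08).

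**Figure D5:**
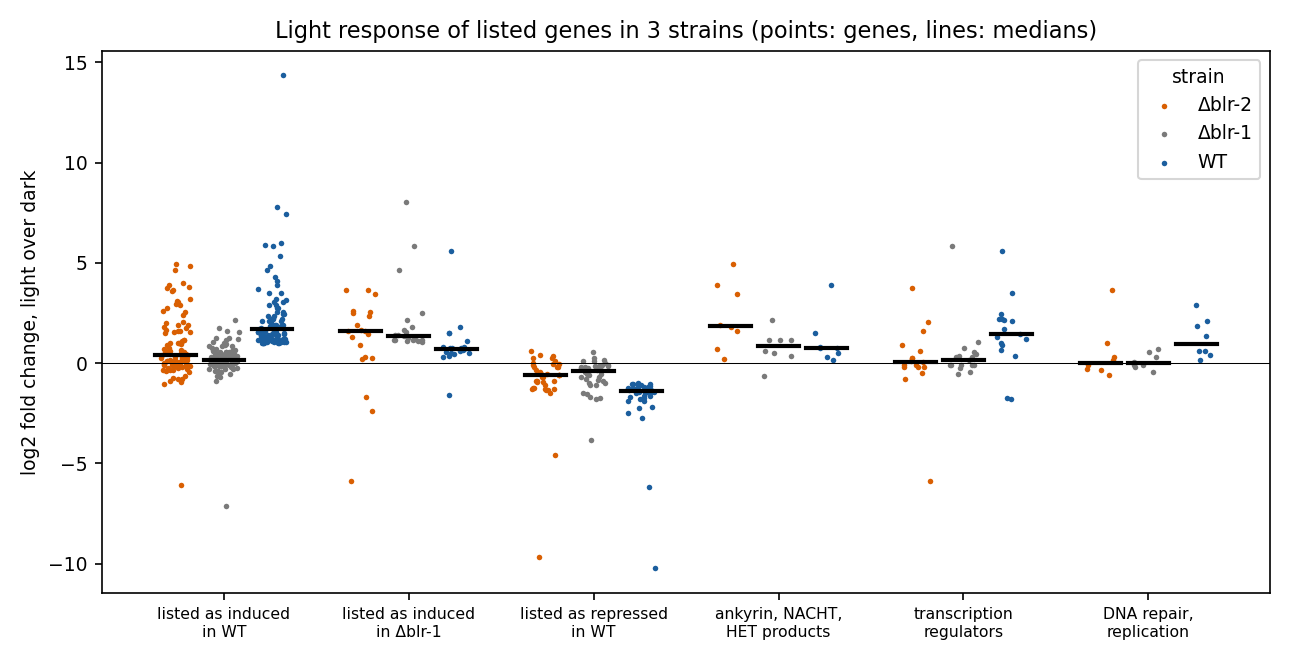
Log2 fold change, light over dark, of the tested members of 6 lists in Δblr-2 (orange), Δblr-1 (grey) and WT (blue), each point a gene and each line a median. Δblr-2 has its highest medians in the ankyrin, NACHT and HET list (1.85) and the list of genes induced in Δblr-1 (1.61), which share members, and medians of 0.42 in the list induced in WT and 0.06 among transcription regulators.

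The label of the tissue is mycelium, so genes of conidia, the other cell type of the culture, were checked. Of 7 conidial genes (3 hydrophobins, 2 pigment polyketide synthases including alb-1, the conidiospore surface gene cmp-1 and a multicopper oxidase) 0 were called, and 0 passed the adjusted or an unadjusted p under 0.05 in Δblr-2 (edgeR). Since the fit shares its spread estimate across strains, their SEs were 0.89 to 1.97 log2 units, and only large changes could pass. alb-1 was lower in every light library without passing, at 6.35, 5.73 and 6.52 CPM against 8.59, 8.66 and 7.94 CPM in darkness. The summed level of the 7 genes was 33.1, 26.02 and 30.9 CPM in Δblr-2 light and 27.0, 31.1 and 25.4 CPM in Δblr-2 dark. The groups overlap, and the sums lay below the 42.2 to 622 CPM of the WT libraries. They lay within the 20.9 to 59.8 CPM of the Δblr-1 libraries and the 19.7 to 48.2 CPM of Δenv-1 light. Δenv-1 dark replicates 1 and 2 gave 882 and 26.2 CPM. A low sum was thus not particular to Δblr-2.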

How the data were processed

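Total RNA of mycelium was sequenced by the authors, who estimated transcript abundance with kallisto. The deposited table holds the authors' kallisto output as estimated counts, also called expected counts, with no normalization, per transcript and library. In the 24 matched columns 8.33% of values were not whole, and all were rounded. Of the table's columns, 12 could not be matched to the samples used here and were not used. In edgeR 4.0.16 (R 4.3.3, limma 3.58.1), 23 libraries were fitted together, 1 mean per strain and treatment, without Δenv-1 dark replicate 3, which the submitters' design notes set aside as more variable. The same notes state that the Δblr-2 libraries were deposited but not used in their own work. Genes passed filterByExpr with a minimum count of 10, which kept 9605 of 11863 transcripts, and libraries were scaled by TMM. Fold limits against groups with at most 3 counts per library use the mean floor of 3 counts per library. Depth ranged from 1519260 to 21505809 counts, with a median of 7843798. A chi-square comparison of replicate counts found no duplicated library (lowest 2.01 per degree of freedom).

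Genes named were those with a symbol in the study's text, those it names as responding without BLR-1, the called members of the Δblr-1 list, the 12 largest changes in each direction (over all and over annotated genes) with separate groups, the 6 largest response differences in each direction and called members of the lists. Genes 26345, 128510, 42429 and those of the neighbour runs were added after their values were seen. Members and lists were chosen with earlier results of these data known. Product names came from the study's supplementary tables. On simulated counts (9452 genes), the Δblr-2 comparison recovered 89.8% of 2-fold and 98% of 4-fold increases and 85.4% of 0.5-fold and 98.0% of 0.25-fold decreases. Recovery was counted by adjusted p alone, without the fold limit that the calls also need. The simulated 2-fold increases had a median fitted log2 fold change of 0.97, below that limit, so these rates do not apply to the calls. DESeq2 1.42.0, other scalings, filters, tests, a replicate block and left-out replicates were alternatives. Limits to called genes of at least 5 CPM or with whole counts were chosen after seeing the data. Promoter motifs were not analysed here. Gene order came from the RefSeq annotation of another strain, P1, with 9014 tested Ids matched.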

Additional observations from a re-analysis of the deposited data

Results flagged for a closer look

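Each result here is a difference between the light response of Δblr-2 and that of another strain that passed the edgeR test of the difference itself (adjusted p of at most 0.05), given as Δblr-2 minus the other strain on the log2 scale. Groups of 3 libraries were not searched for outlying samples. Against WT, the Δblr-2 response was higher in 1117 and lower in 754 genes, and against Δblr-1 higher in 977 and lower in 527.

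Among the genes with a symbol, the difference from WT was -6.49 for env-1, -3.11 for blu-1, 1.14 for bld-2, -1.19 for phr-1, -0.86 for cry-1, -2.43 for cry-DASH, -2.39 for frq and -0.66 for tmk-3. That of cry-DASH no longer passed the test in 4 of 12 alternatives (edgeR adjusted p of up to 0.134). The difference from Δblr-1 was 4.04 for blu-1 and 0.82 for tmk-3, and it did not pass the test for the other genes just named.

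The largest differences from WT were 8.84 for Id. 260019, 8.31 for Id. 256410, 6.92 for Id. 16953, 5.93 for Id. 305527, 5.67 for Id. 28704 and 5.58 for Id. 184804, a terpenoid synthase, in the upward direction. In the downward direction they were -10.10 for Id. 298191, -7.85 for Id. 242992, -5.25 for Id. 298329, -4.74 for Id. 153516 and -4.66 for Id. 42455, beside env-1. For Id. 260019, Id. 305527 and Id. 184804 the change within Δblr-2 was not called, at 2.74, 1.75 and -0.61. The difference of Id. 16953 no longer passed the test in 6 of 12 alternatives, and those of Id. 256410, Id. 260019 and Id. 28704 in 1 of 14, 1 of 10 and 1 of 14 (edgeR adjusted p of up to 0.0663, 0.078, 0.0567 and 0.0556).

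The largest differences from Δblr-1 were 11.83 for Id. 256410, 8.42 for Id. 28704, 8.23 for Id. 40549, 5.59 for Id. 16953, 5.11 for Id. 301284 and 5.03 for Id. 91076. Downward they were -7.95 for Id. 179280, -7.48 for Id. 298191, -6.31 for Id. 256835, -2.69 for Id. 91815, -2.48 for Id. 282604 and -2.44 for Id. 40284. Those of Id. 179280, Id. 298191 and Id. 40284 no longer passed the test in 5 of 14, 4 of 14 and 6 of 13 alternatives (edgeR adjusted p of up to 0.0768, 0.0875 and 0.126). Fitted differences of genes with a group at or near 0 counts, as Id. 260019, Id. 256410, Id. 16953, Id. 305527, Id. 28704, Id. 184804, Id. 298191, Id. 242992, Id. 179280, Id. 40549, Id. 256835, Id. 301284, Id. 40284 and Id. 91815, depend on the prior count of the fit and are no measured fold. Counts that were not whole in several libraries touch Id. 256410, Id. 260019, Id. 305527, Id. 298191, Id. 242992, Id. 179280 and Id. 256835.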

How the results depend on the processing

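Induced genes numbered 577 and repressed genes 131. Without a fold limit the counts were 1997 and 1687, with a test against a log2 fold change of 1 (glmTreat) 270 and 12, and among called genes of at least 5 CPM, a limit chosen after seeing the data, 470 and 84. RLE scaling gave 585 and 128, no filter 614 and 127, a minimum count of 30 496 and 102, the likelihood ratio test 587 and 138, DESeq2 557 and 113, and the Δblr-2 libraries alone 570 and 123. With 1 replicate left out, induced genes ranged over 493 to 615 and repressed genes over 98 to 198, responses above WT over 887 to 1278 and below it over 537 to 920, and above Δblr-1 over 745 to 1002 and below it over 304 to 590. Members repressed ranged over 0 to 1 in the lists induced in WT, induced through BLR-1, induced in Δblr-1 and repressed only in Δenv-1, and over 1 to 3 in the list repressed in Δblr-1. The likelihood ratio test gave 1 repressed member in the list induced in Δblr-1. Beyond these lists, a left-out replicate moved a count by over 1.5 times for repressed genes (Δblr-2 light replicate 2) and for responses below Δblr-1 (304 without Δblr-2 light replicate 1, 351 without Δblr-1 light replicate 2). Without 1 replicate, the log2 fold change of cry-DASH ranged over -0.84 to 0.10 (positive without Δblr-2 dark replicate 2) and that of Id. 298329 over -0.029 to 0.19 (negative without Δblr-2 dark replicate 3). Causes were not tested, beyond the smaller number of genes or samples that some settings leave.

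Same-numbered light and dark libraries of Δblr-2 correlated at 0.00, 0.09 and 0.04 in their deviations from the group means, and light replicate 1 correlated best with dark replicate 3, so the numbers were not taken as pairs. With a replicate block, 563 genes were induced and 138 repressed, the response was above WT in 1284 and below it in 970 genes, above Δblr-1 in 1098 and below it in 705, and 1 member was repressed in each of the lists induced in WT, through BLR-1 and in Δblr-1. Of 98 called genes named or listed, 78 kept their call under every alternative run and 20 lost it under at least 1. Of 33 named differences between responses that passed the test, 25 kept passing and 8 did not under at least 1. Among the Δblr-2 libraries, depth limits low transcripts most in dark replicate 1, where 3 counts equal 1.23 CPM.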

Other observations

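On the gene order of the P1 assembly, 534 induced genes could be placed, and 136 of them (25.5%) had an induced gene next to them, as had 11.3% of all placed genes. For repressed genes it was 8 of 128 (6.25%), against 2.77%. The longest run of induced neighbours held 5 genes: Id. 302318, Id. 84221, Id. 295780, Id. 29956 and Id. 28704, with log2 fold changes of 1.90, 1.02, 1.30, 4.72 and 7.69. In this run Id. 302318 had 521, 435 and 468 CPM in light, against 127, 128 and 125 CPM in darkness, and Id. 29956 had 5.90, 2.41 and 1.88 CPM in light, against 0, 0.180 and 0.091 CPM in darkness. The 5 genes had log2 fold changes of -0.18 to 2.02 in WT and -1.99 to 0.39 in Δblr-1. A run of 4 held Id. 224295, Id. 319933, Id. 258064 and Id. 203737, with log2 fold changes of 1.89, 1.08, 1.63 and 1.72. None of these genes has a product name in the sources used, and their order in the strain sequenced here was not checked.

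The Δenv-1 libraries gave 30 genes induced in both Δblr-2 and Δenv-1, which is 5.20% of the Δblr-2 and 32.3% of the Δenv-1 calls. Over the 577 induced genes of Δblr-2 the median log2 fold change in Δenv-1 was 0.16. Ids 254981 and 297658, listed as induced in WT, had identical fitted values and levels in the Δblr-2 libraries, so their reads cannot be told apart.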
